A study of Mus musculus with 12 samples.

Results

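The *Sox4* *Myb* *Ikzf2* cells were a cluster of splenic PD-1+CD44+CD8+ T cells found in NZB/W F1 mice at 12 weeks (12W) and again at 28 weeks (28W) of age. Their members were all cells that the authors had placed in cluster 1 of the 12W spleen library and in cluster 3 of the 28W spleen library. This gave 1323 of 6894 cells at 12W and 914 of 6481 cells at 28W, or 2237 of 20510 cells in the whole series. The clusters were known by 6 marker genes, *Sox4*, *Myb*, *Kcnc1*, *Ikzf2*, *St8sia6* and *Ift80*.

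NZB/W F1 mice are a cross of the NZB and NZW strains that develops lupus nephritis with age, and the study sorted these cells from the spleen at both ages and from the kidney at 28W. All groups shared the strain and the sort, and the study names female mice. The 4 samples listed for each group were pooled in 1 table, so each group was 1 library, and the number of mice behind it is not given.

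Single-cell RNA sequencing counted unique molecular identifiers (UMIs), each standing for 1 captured transcript. The 12W cells held 6292821 UMIs (4756 per cell) and the 28W cells 4810485 (5263 per cell), with 1.32% and 1.22% from mitochondrial genes and 29.1% and 33.1% from ribosomal protein genes. The libraries shared between 52 and 66 cell barcodes in each pair, and 2 barcodes were in these cells at both ages. Levels are UMIs per 1000000 UMIs of a cell group (CPM), with exact Poisson 95% intervals in brackets. A log2 ratio was taken after adding 1 CPM to both levels. With 1 library per group there was no test, and each interval covers counting error only. Both clusters were made from the same transcripts, so their differences from the other cells are a description.

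*Sox4*, *Tcf7*, *Lef1* and *Tox* encode proteins with an HMG box, a domain that binds DNA, and act during T cell development and in long-lived T cells. *Myb* encodes a factor needed by immature lymphocytes and by stem-like CD8+ T cells. *Ikzf2* encodes Helios, an Ikaros family zinc finger protein known from regulatory T cells and from T cells that met self-antigen. *Kcnc1* encodes a voltage-gated potassium channel studied in neurons, *St8sia6* a sialyltransferase that makes ligands for inhibitory Siglec receptors, and *Ift80* a component of the transport along cilia.

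RefSeq promoters were found for 4 of the 6 markers, *Sox4*, *Myb*, *Kcnc1* and *St8sia6*. The 250 bases before the start of *Sox4* and *Kcnc1* are shown because these were the markers with their highest CPM in these cells in both spleen libraries (GRCm38.p6, *Sox4* chr13:28953700-28953949 minus strand, *Kcnc1* chr7:46396218-46396467 plus strand). Capitals were kept for CTTTG, the core letters bound by HMG box factors, on either strand.
Sox4: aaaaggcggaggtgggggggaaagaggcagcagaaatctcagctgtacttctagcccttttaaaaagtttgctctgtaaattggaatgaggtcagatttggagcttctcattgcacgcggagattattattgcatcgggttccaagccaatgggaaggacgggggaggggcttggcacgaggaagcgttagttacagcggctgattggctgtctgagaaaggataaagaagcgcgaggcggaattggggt
Kcnc1: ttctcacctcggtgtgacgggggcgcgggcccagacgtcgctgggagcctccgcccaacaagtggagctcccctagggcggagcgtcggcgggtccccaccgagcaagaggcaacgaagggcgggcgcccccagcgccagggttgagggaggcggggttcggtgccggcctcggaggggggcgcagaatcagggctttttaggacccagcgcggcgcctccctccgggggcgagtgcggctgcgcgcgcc
Neither sequence held CTTTG, so neither has capitals, and neither held AACNG, the core letters bound by Myb. In the same window *St8sia6* held 1 match to each and *Myb* none, while 48.6% of 32851 promoters held CTTTG and 74.2% held AACNG. No match says only that these letters are not in this window.

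*Sox4* (chromosome 13, 28948919 to 28953713, minus strand) was at 180 CPM [170, 191] in the 12W cells against 49.0 [46.5, 51.6] in the other cells of that library. At 28W it was at 115 [106, 125] against 10.1 [8.91, 11.3]. It was the marker with the highest log2 ratio at 28W, 3.39, and 66.9% of all *Sox4* UMIs of that library came from these cells, against 44.8% at 12W. *Kcnc1* (chromosome 7, 46396497 to 46438704, plus strand) was at 57.7 [51.9, 63.9] against 12.2 CPM at 12W and at 50.3 [44.2, 57.1] against 4.89 at 28W. Both genes had a higher CPM here than in every other cluster of the spleen at both ages. For *Kcnc1* the lead was not beyond counting error everywhere. It was at 46.9 CPM [25.0, 80.3] in 28W cluster 11, from 13 UMIs, and at 28.1 [12.1, 55.3] in 12W cluster 8, from 8 UMIs.

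*Myb* (chromosome 10, 21124935 to 21160984, minus strand) was at 192 CPM [181, 203] against 69.8 at 12W and at 177 [165, 189] against 31.8 at 28W. *Ikzf2* (chromosome 1, 69531214 to 69687245, minus strand) was at 221 [210, 233] against 83.9 at 12W and at 135 [125, 146] against 35.2 at 28W. *Ift80* (chromosome 3, 68892499 to 69004570, minus strand) was at 155 [146, 165] against 60.6 and at 128 [119, 139] against 28.9 CPM. These 3 genes stood 2nd in each library. The clusters above them, 12W cluster 8 and 28W cluster 11, had few UMIs per cell (928 and 1288) and much mitochondrial RNA (8.98% and 6.64%). *Myb* reached 474 and 209 CPM there and *Ikzf2* 797 and 339. *St8sia6* (chromosome 2, 13651021 to 13794064, minus strand) was at 30.2 [26.1, 34.8] against 6.75 CPM at 12W, where the haemoglobin-rich cluster 3 had 34.6. At 28W it was at 36.4 [31.2, 42.2] against 4.96, next to 36.1 in cluster 11.

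**Figure D1:**
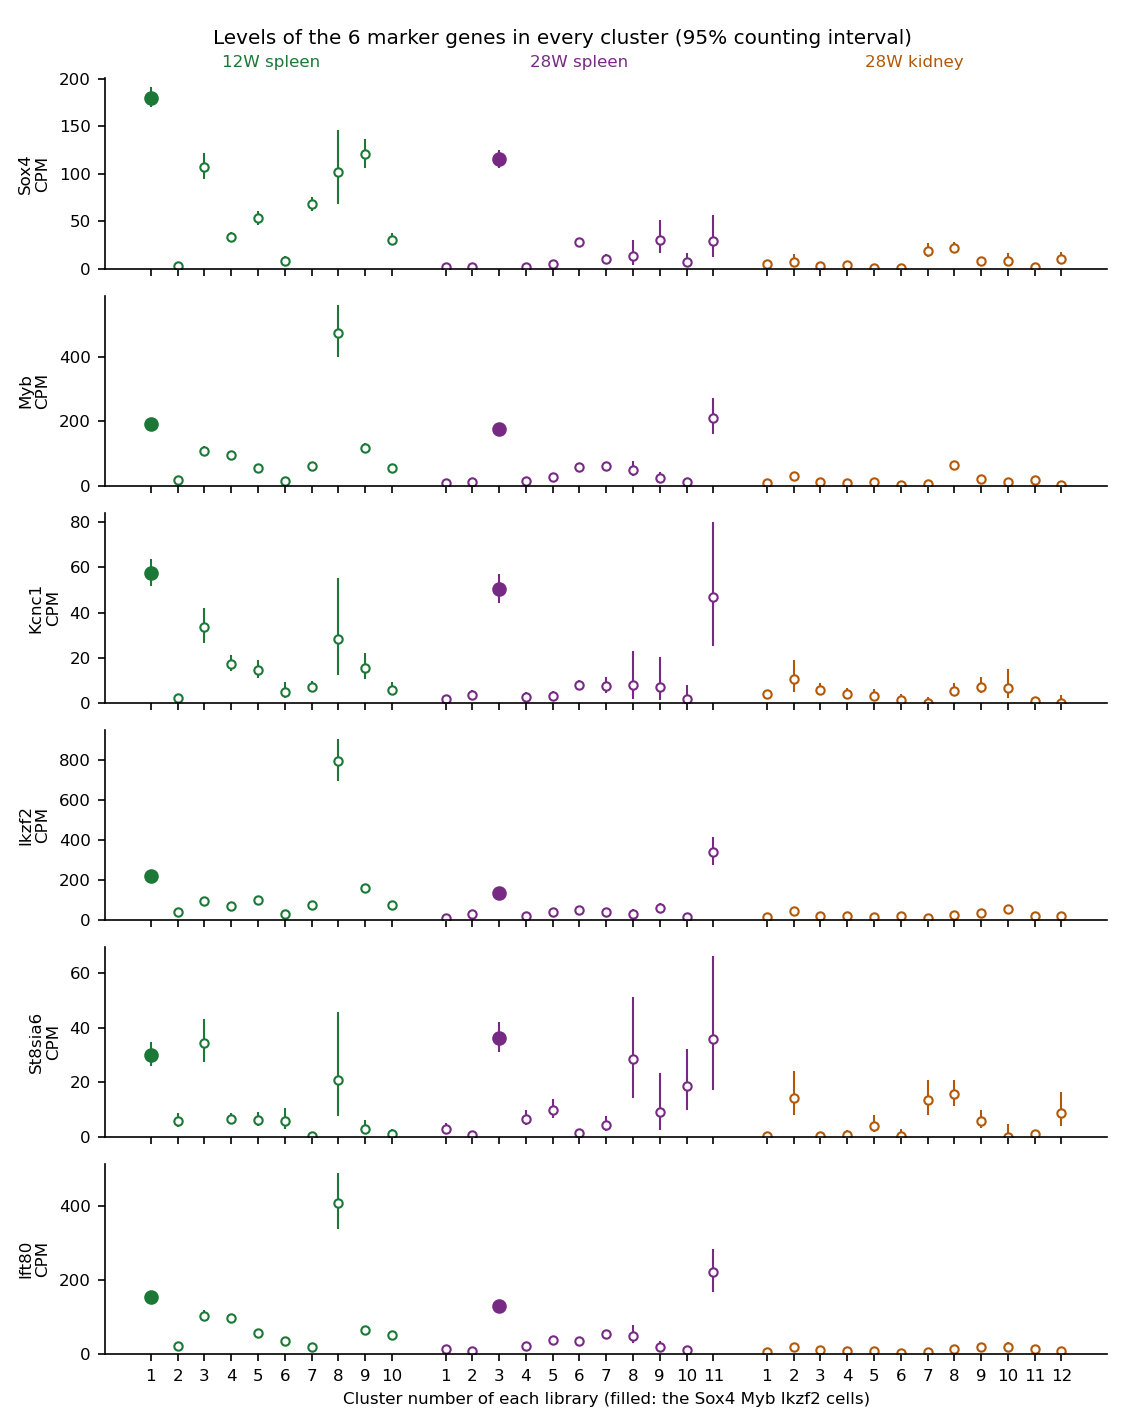
CPM of the 6 marker genes (vertical axes, from 0) in each cluster of the 3 libraries (horizontal axis, cluster numbers), with 95% counting intervals as vertical lines. The filled points are the *Sox4* *Myb* *Ikzf2* cells, which lie highest for *Sox4* and *Kcnc1* at both ages. Clusters 8 (12W) and 11 (28W) lie above them for *Myb*, *Ikzf2* and *Ift80*, and their intervals overlap those of the filled points for *Kcnc1*.

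All markers but *Ikzf2* at 12W averaged less than 1 UMI per cell. The 12W cells held 1.05 *Ikzf2*, 0.914 *Myb*, 0.856 *Sox4*, 0.738 *Ift80*, 0.274 *Kcnc1* and 0.144 *St8sia6* UMIs per cell. The 28W cells held 0.712, 0.931, 0.606, 0.676, 0.265 and 0.191 in the same order. Per cell, *Sox4* was higher in 12W clusters 7 (0.911) and 9 (0.882). *Ikzf2* was higher in 12W clusters 9 (1.19) and 10 (1.08), and *Ift80* in cluster 10 (0.757). Those clusters also held more UMIs of all genes per cell. The other markers at 12W, and every marker at 28W, were highest per cell of all spleen clusters in these cells. At these depths a cell with no UMI of a marker cannot be told from a cell that lacks its transcript.

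Outside these cells, the markers were less common at 28W than at 12W. The other cells had 49.0 CPM *Sox4* at 12W and 10.1 at 28W, and in 12W clusters 9 and 3 it was at 120 and 107. The highest level outside these cells at 28W was 29.8, in cluster 9. In the 28W kidney every cluster was below the spleen cells for each marker. The highest levels were 22.1 CPM for *Sox4*, 63.9 for *Myb* and 15.7 for *St8sia6* in cluster 8, which held 12667 CPM of 8 B cell genes. For *Ikzf2*, *Ift80* and *Kcnc1* they were 56.8, 19.6 and 10.3 in clusters 10, 2 and 2. The level of *St8sia6* there was within 2-fold of the 30.2 CPM of the 12W cells.

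The clusters of the 2 ages were numbered by the authors within each library, so their likeness was measured across genes. Over 5422 genes with at least 20 CPM in either spleen library, the log2 ratios of the 12W cells over the other cells and those of the 28W cells over the other cells had Pearson's r = 0.88. The next highest correlation of the 12W cells was 0.73, with 28W cluster 5, and that of the 28W cells was 0.73, with 12W cluster 4. Within their own libraries the cells were most like 12W cluster 4 (0.75) and 28W cluster 7 (0.70). Of the kidney clusters, cluster 3 had the highest r with the 12W cells (0.69) and cluster 9 with the 28W cells (0.64). Genes are not independent replicates, and ratios within a library share its other cells.

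**Figure D2:**
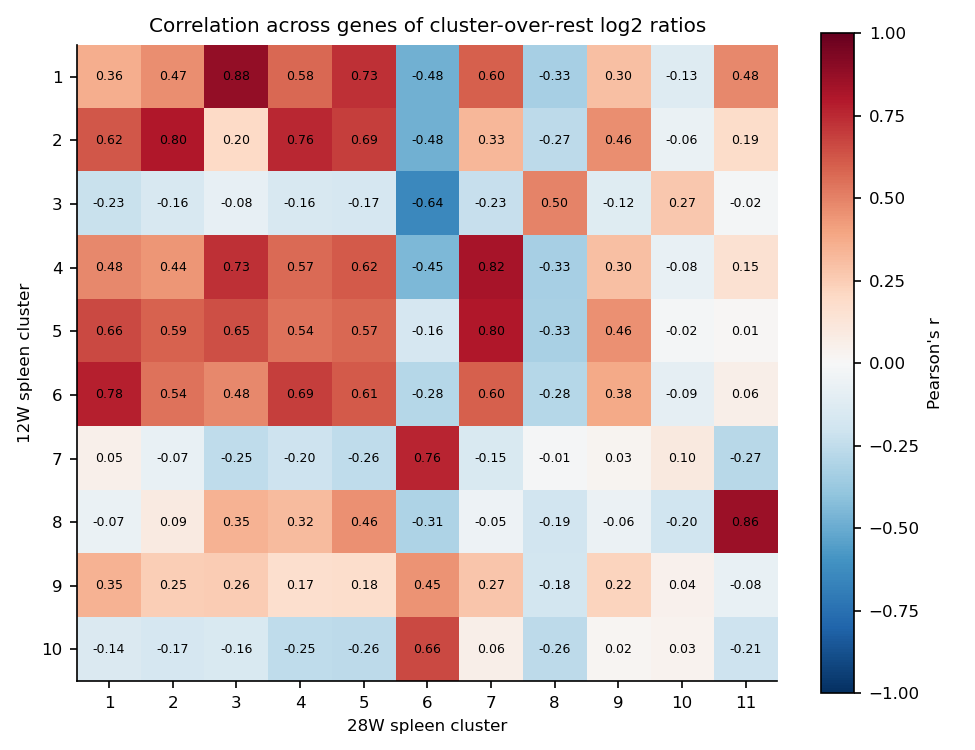
Pearson's r across 5422 genes between cluster-over-rest log2 ratios of each 12W spleen cluster (rows) and each 28W spleen cluster (columns), with colour from -1 (blue) to 1 (red). The highest value of row 1 and of column 3 is their own crossing, 0.88.

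Among genes with at least 20 CPM in the cells or the other cells, 86 of 5828 (1.48%) were at least 2-fold higher in the cells at 12W and 158 (2.71%) at least 2-fold lower. At 28W, 103 of 5491 (1.88%) were higher and 153 (2.79%) lower. The median gene was 0.23 higher at 12W and 0.09 at 28W on the log2 scale, and relative to that median 27 genes were higher and 262 lower at 12W, and 82 and 180 at 28W. Of all genes compared, 68.6% were on the higher side of 0 at 12W and 60.0% at 28W. Of the genes at least 2-fold higher, 39 were in both lists, 45.3% of the 12W list and 37.9% of the 28W list. Of those lower, 85 were shared, 53.8% and 55.6% of the lists.

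The 12 genes with the highest ratio at 12W were *Kcnc1*, *Tubb2b*, *St8sia6*, *Sox4*, *Dglucy*, *Xylt1*, *Cldn10*, *Xdh*, *Rps6ka5*, *Dnah8*, *Myb* and *Mirt1*, with log2 ratios from 2.15 to 1.44. At 28W they were *Sox4*, *Kcnc1*, *St8sia6*, *Myb*, *Dglucy*, *Basp1*, *Ift80*, *Rps6ka5*, *Ikzf2*, *Cldn10*, *Tec* and *Txndc12*, from 3.39 to 1.84. *Tubb2b*, a beta tubulin, was at 27.7 CPM against 6.12 at 12W and 18.1 against 2.39 at 28W. *Dglucy*, a mitochondrial enzyme of D-glutamate breakdown, was at 34.3 against 9.49 and 34.1 against 6.32. *Cldn10*, a tight junction claudin, was at 35.0 against 10.5 and 26.8 against 6.58, the highest of all clusters at both ages, as was *Xdh*, xanthine dehydrogenase of purine breakdown (59.4 against 19.6 and 47.0 against 14.9). *Tec*, a kinase of antigen receptor signalling, was at 57.2 against 22.1 and 59.5 against 15.8 CPM.

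Most of the genes with the lowest ratios are known from other blood cells. At 12W these were *Hbb-bs*, *Hbb-bt*, *Hba-a1*, *Jchain*, *S100a8*, *S100a9*, *Pclaf* and *Ube2c*, and at 28W *Hbb-bs*, *S100a8*, *S100a9*, *Hba-a1*, *Ngp*, *Hbb-bt*, *Jchain* and *Camp*. *Pclaf* and *Ube2c* are cell cycle genes. The 5 erythroid genes summed to 9.85 CPM in the 12W cells and 4.57 in the 28W cells, against 2955 and 592 in the other cells, which included haemoglobin-rich clusters 3 (12W) and 8 (28W). Of 10 myeloid genes, 2 and 6 were at 0 UMIs in the 12W and 28W cells, with sums of 13.5 and 10.6 CPM, and *S100a8*, a neutrophil gene, had 0 UMIs at 12W, which allows up to 0.477 CPM. Of 8 B cell genes, 2 and 1 were at 0. Their sums of 272 and 266 CPM were mostly *Ighm* (223 and 197), with *Cd79a* at 0.477 and 0.832. Without the clusters of other blood cells or of low depth in the comparison, 155 genes were higher and 171 lower at 12W, and 114 and 132 at 28W.

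**Figure D3:**
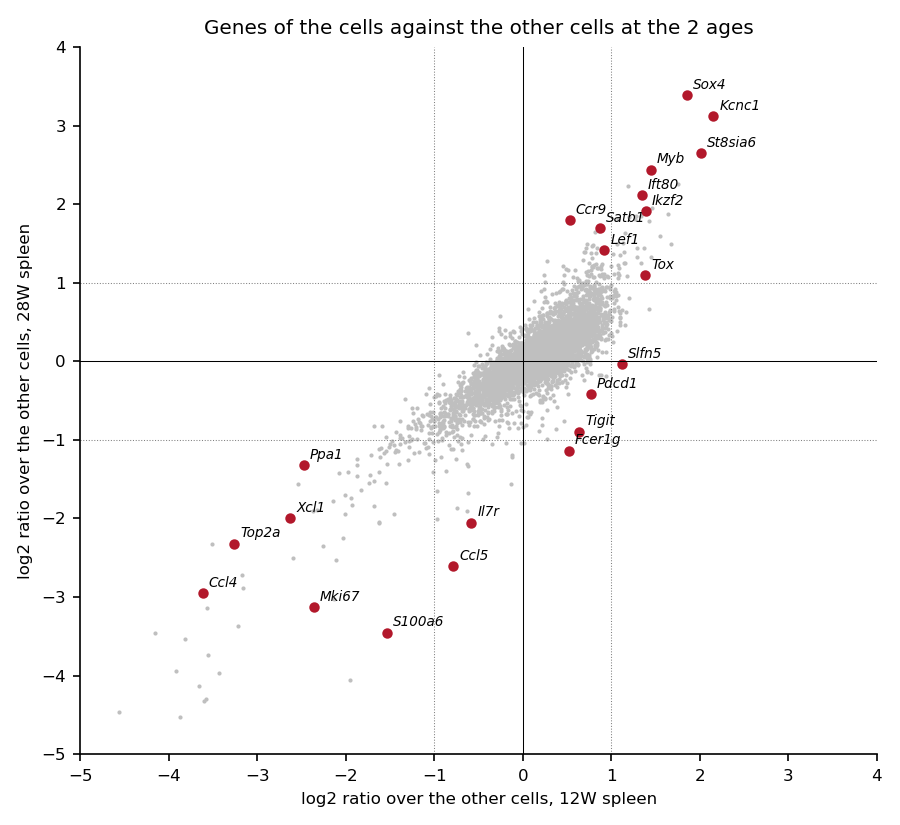
Log2 ratio of the *Sox4* *Myb* *Ikzf2* cells over the other cells in the 12W spleen (horizontal) and the 28W spleen (vertical) for 5345 genes with at least 20 CPM on either side at both ages, each dot a gene, dotted lines at 2-fold. Named genes are in red, with the 6 markers at the upper right and *Pdcd1*, *Tigit* and *Fcer1g* right of 0 and below 0. Axes run from -5 to 4, and 6 genes lie outside.

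Factors of naive and memory T cells were higher in the cells at both ages. Of 10 listed, all 10 passed the filter and all 10 were above the other cells, by a median log2 ratio of 0.79 at 12W and 0.86 at 28W, against 0.23 and 0.09 for all genes, of which 68.6% and 60.0% were higher. None reached 2-fold at 12W and 4 did at 28W, next to 1.48% and 1.88% of all genes. *Lef1* was at 583 CPM [564, 602] against 307 at 12W and at 370 [353, 388] against 138 at 28W. *Satb1*, a chromatin organiser of thymocytes, was at 291 against 158 and 206 against 63.0. *Klf2*, a factor of T cell egress, had the smallest ratio, 963 against 698 and 1176 against 1125 CPM, and its 28W log2 ratio of 0.06 lay under the median of all genes.

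The HMG box list had 8 of 9 genes measured and 4 above the filter, and it includes *Sox4*, a marker by which the cells were known. Where 68.6% and 60.0% of all genes were higher, with medians of 0.23 and 0.09, all 4 were higher in the cells at both ages (median 1.15 and 1.25). Besides *Sox4* these were *Tox* (169 CPM [159, 180] against 64.5 at 12W, 133 [123, 143] against 61.7 at 28W), *Lef1* and *Tcf7* (319 against 194 and 321 against 187, the highest of all clusters at both ages). Of the Ikaros family, *Ikzf1* (184 against 129, 180 against 111) and *Ikzf3* (221 against 138, 169 against 138) differed less than *Ikzf2*, also such a marker. *Mybl1* and *Mybl2*, the relatives of *Myb*, did not reach 20 CPM on either side at either age.

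Among effector factors, 6 of 12 passed the filter at 12W and 7 at 28W, and they did not move together. *Eomes*, a T-box factor of memory CD8+ T cells, was at 108 CPM against 72.8 at 12W and 132 against 62.4 at 28W. *Tbx21*, which encodes T-bet, was at 13.0 against 20.5 and 12.5 against 42.0, the lowest of all 11 clusters at 28W. *Id2* was at 185 against 141 at 12W and at 94.8 against 143 at 28W.

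Most cytotoxic genes above the filter were lower in the cells at 12W, and all of them were at 28W. Of 14, 8 passed the filter at 12W, with 6 lower, 3 of them at least 2-fold, and a median of -0.61. The 2 on the higher side were *Prf1*, which encodes perforin, 47.2 CPM against 40.2, and *Nkg7*, 443 against 427. At 28W 11 passed, all lower and 7 of them at least 2-fold, with a median of -2.00, against 0.23 and 0.09 for all genes. Of all genes, 2.71% at 12W and 2.79% at 28W were at least 2-fold lower. *Ccl5*, a chemokine of effector T cells, was at 830 CPM [808, 853] against 1436 at 12W and at 747 [723, 772] against 4563 at 28W. *Ccl4* was at 7.79 against 107 and 13.9 against 115, and *Xcl1* at 68.8 against 432 and 45.3 against 184. *Gzmb*, which encodes granzyme B, had 0.795 against 10.6 CPM at 12W and 1.46 against 33.1 at 28W. *Gzma* was nearest to the other cells at 28W, 65.1 against 77.0.

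Cell cycle genes were lower as well, with 10 of 11 at least 2-fold lower at 12W (median -2.01) and 9 of 11 at 28W (median -1.94). Of all genes, 2.71% and 2.79% were at least 2-fold lower, with medians of 0.23 and 0.09. *Mki67* was at 7.95 CPM against 45.0 at 12W and at 4.16 against 44.0 at 28W. The other cells held cycling clusters 10 (12W) and 6 (28W), with 7165 and 3781 CPM of the 12 genes, against 460 and 549 in these cells. Most other clusters had like sums, from 335 to 521 at 12W among clusters 2 to 6 and 9. At 28W the sums ran from 329 to 535 in clusters 1, 2, 4, 5 and 7, below these cells, and from 536 to 1372 in clusters 8 to 11. Outside the cycling clusters, these cells were thus not set apart by low cell cycle genes.

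Transcripts of the proteins used in the sort were present. *Cd8b1* was at 787 CPM against 892 at 12W and 676 against 1075 at 28W, and *Cd8a* at 517 against 607 and 309 against 520. *Cd44* was at 33.5 against 30.9 and 42.8 against 49.5. *Pdcd1*, which encodes PD-1, was at 55.8 CPM [50.1, 61.9] against 32.3 [30.2, 34.5] at 12W, 3rd of 10 clusters, and at 26.8 [22.4, 31.9] against 36.1 [33.9, 38.5] at 28W, 8th of 11. Of 12 inhibitory receptor genes measured, 8 passed the filter, with 6 higher at 12W (median 0.34) and 3 at 28W (median -0.19). Of all genes 68.6% and 60.0% were higher, with medians of 0.23 and 0.09. None of the 8 differed by 2-fold from the other cells, as was so for most genes. Of all genes, 1.48% were at least 2-fold higher and 2.71% lower at 12W, and 1.88% and 2.79% at 28W. The inhibitory receptor *Cd160* was at 69.8 against 65.8 and 24.7 against 32.0, and *Cd200* at 31.8 against 36.1 and 26.2 against 45.5.

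Genes of anergy and tolerance were all on the higher side, 8 of 8 above the filter at 12W (median 0.60) and 7 of 7 at 28W (median 0.51), none by 2-fold, where 68.6% and 60.0% of all genes were higher with medians of 0.23 and 0.09. *Cblb*, a ubiquitin ligase that dampens antigen receptor signals, was at 159 against 86.4 CPM at 12W and 131 against 81.5 at 28W, and *Dgka*, a kinase that removes diacylglycerol, at 434 against 276 and 450 against 284. *Izumo1r*, the folate receptor FR4, was at 110 against 101 at 12W, which turned to the lower side relative to the median gene, and at 139 against 81.4 at 28W. In the TCR complex and signalling list, 10 of 12 were higher at 12W (median 0.28) and 9 of 12 at 28W (0.19), none by 2-fold, next to 68.6% and 60.0% of all genes and medians of 0.23 and 0.09. The kinase *Lck* was at 1093 against 765 CPM at 12W and 939 against 718 at 28W.

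Receptors of homing and of cytokines were mixed. Of the homing and egress genes 9 of 13 were higher at 12W (median 0.31, which turned to -0.09 against the unweighted mean of the other clusters) and 7 of 14 at 28W (median 0.20), where 68.6% and 60.0% of all genes were higher, with medians of 0.23 and 0.09. Of the cytokine receptors 8 of 10 were higher at 12W (0.36) and 6 of 11 at 28W (0.17, which turned to -0.04 in the same way). *Ccr9*, a receptor of gut and thymus homing, was at 83.4 CPM against 57.5 at 12W and 26.2 against 6.83 at 28W, while *Cxcr3*, a receptor of inflamed tissue, was at 42.1 against 83.5 and 59.9 against 191. *Il6st*, the signalling chain for interleukin 6, was at 80.9 against 37.8 and 46.6 against 21.9. *Il7r* was at 151 [141, 161] against 227 and at 93.8 [85.3, 103] against 393, and *Il18r1* at 11.8 against 17.5 and 7.69 against 54.9. In the survival list 6 of 9 genes were higher at 12W (median 0.25) and 4 of 8 at 28W (0.05, which turned to -0.04 relative to the median gene), next to the same shares and medians of all genes. There *Bcl2* was at 137 against 82.6 at 12W and 79.2 against 73.9 at 28W, and *Bcl2a1d* at 15.6 against 43.7 and 22.9 against 51.1.

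The relatives of the other markers differed less than the markers. The clusters were known by the markers, so this order was set by that choice and is no separate result. Of 12 sialyltransferases, 8 passed the filter at each age. *St8sia6* had the highest ratio, and *St6galnac4* the lowest (-1.26 at 12W, -0.59 at 28W). Next to *St8sia6* came *St8sia4* at 12W (54.4 CPM against 27.5) and *St3gal1* at 28W (67.4 against 31.1). Of 9 potassium channel genes, 4 passed, and *Kcna3* and *Kcnn4*, the channels known in T cells, were at 38.6 against 33.2 and 135 against 108 at 12W. Relative to the median gene *Kcna3* then turned to the lower side. Of 14 intraflagellar transport genes, 4 passed, and *Ift20*, *Ift27* and *Ift52* had log2 ratios from -0.35 to 0.40 at both ages, against 1.34 and 2.12 for *Ift80*.

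Of genes that mark other T cells, 1 of 9 measured gamma delta and type 17 genes, *Trdc*, passed the filter. The 9 genes summed to 77.7 CPM against 39.9 in the other cells at 12W, with 1 at 0 UMIs in the cells, and to 50.1 against 28.4 at 28W, with 4 at 0 UMIs. *Trdc*, the delta chain constant region, was at 38.3 CPM against 21.6 at 12W, with 126 in cluster 3, and at 27.9 against 9.33 at 28W. Below the filter, *Tcrg-C4* was at 17.0 against 7.03 and 12.1 against 5.11, *Tcrg-C2* at 13.7 against 4.96 and 6.65 against 5.99, and *Blk*, a kinase of B cells and of some gamma delta T cells, at 0.159 against 1.72 and 0.624 against 4.74. The part of gamma delta T cells in the differences of these cells was not tested. Summed levels of the 3 CD4 T cell genes were 1.59 and 1.25 CPM, with *Cd4* at 1 and 2 UMIs. *Foxp3* was at 4.13 against 3.69 and 4.37 against 3.42 CPM. Of 9 measured Ly49 and NKG2 genes, known from CD8+ regulatory T cells, 1 passed the filter at 12W (log2 ratio 0.19, which turned to -0.05 relative to the median gene). At 28W 3 passed, with 1 higher, 2 at least 2-fold lower (2.79% of all genes were) and a median of -1.47. *Klrd1* was at 162 CPM against 142 at 12W and 149 against 99.5 at 28W. *Klrc1* was at 10.6 against 14.7 and 12.3 against 35.8, and *Klrk1* at 2.22 against 12.5 and 10.8 against 42.9. *Klra6*, below the filter, was at 10.3 against 3.97 and 7.28 against 2.57. Of 6 NK cell genes, 1 passed the filter at 12W, with a log2 ratio of 0.52, and 2 at 28W (median -1.93). The 6 genes summed to 44.2 CPM against 49.3 in the other cells at 12W and to 16.2 against 67.1 at 28W. Of 10 measured genes of thymocytes and recent thymic emigrants, 5 passed at each age, with 3 higher at 12W (median 0.70) and 4 at 28W (0.36). Next to these counts, 68.6% and 60.0% of all genes were higher, with medians of 0.23 and 0.09. In this list 1 gene was at least 2-fold higher at each age, and 1 was at least 2-fold lower at 28W. Of all genes, 1.48% and 1.88% were at least 2-fold higher, and 2.79% lower at 28W. *Cd24a*, a marker of immature T cells, went against most of the list at 12W, with a log2 ratio of -0.30. Of 6 heat shock genes, 4 passed at 12W (median -0.38) and 6 at 28W (-0.47).

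The cells were set against the cluster most like them in each library, 12W cluster 4 with 1002 cells and 28W cluster 7 with 390 cells. At 12W, 129 of 5624 genes (2.29%) were at least 2-fold higher in the cells and 5 (0.0889%) lower, and at 28W 161 of 5237 (3.07%) and 8 (0.153%). Ribosomal protein genes took 38.6% of the UMIs of 12W cluster 4 and 39.1% of those of 28W cluster 7. The median gene was 0.36 and 0.25 higher in the cells, and relative to it the counts were 25 and 27 at 12W and 58 and 23 at 28W. *Sox4* was at 33.5 CPM in cluster 4 and 10.3 in cluster 7, and *Ikzf2* at 67.0 and 38.6. *Izumo1r* was higher in both clusters than in the cells, 157 and 183 CPM.

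Examples of genes that differed from these clusters were chosen after their values were seen and are not in order of size. At 12W, *Fcer1g*, a signalling adaptor of innate-like lymphocytes, was at 30.4 CPM in the cells and 0.825 in cluster 4, *Nr4a1*, a gene induced by antigen receptor signals, at 78.5 and 5.12, and *Pdcd1* at 55.8 and 7.26. *Ccl5* was at 830 and 119, and *Trdc* at 38.3 and 4.62. At 28W, *S100a4* was at 6.44 CPM in the cells and 66.6 in cluster 7 and *S100a6* at 51.1 and 260, while *Dglucy* was at 34.1 and 6.62 and *Klf4* at 45.1 and 10.3.

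Between the ages, 33 of 5686 genes (0.58%) were at least 2-fold higher in the cells at 28W than at 12W and 30 (0.528%) at least 2-fold lower. In the other cells 89 of 5346 genes (1.66%) were higher and 40 (0.748%) lower. The median gene was lower at 28W by a log2 ratio of -0.16 in the cells and -0.08 in the other cells. Relative to it, 44 genes were higher and 17 lower in the cells. Age and library cannot be told apart, since each age was 1 library.

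The 10 genes with the highest ratio of 28W over 12W in the cells were *Klf4*, *Socs3*, *Gzmk*, *Fos*, *Gem*, *Lag3*, *Fosb*, *Oas1a*, *Dusp1* and *Ppp1r15a*, with log2 ratios from 2.59 to 1.59. *Klf4*, a factor of T cell quiescence, was at 6.67 CPM [4.81, 9.02] at 12W and 45.1 [39.3, 51.5] at 28W, and at 3.73 and 12.3 in the other cells. *Socs3*, an inhibitor of cytokine signalling, was at 7.79 and 51.8 CPM, *Gzmk*, which encodes granzyme K, at 7.95 and 51.6, and *Lag3*, an inhibitory receptor, at 28.3 and 111. In the other cells these genes were also higher at 28W, *Socs3* at 11.2 and 59.3, *Gzmk* at 28.9 and 153 and *Lag3* at 34.7 and 112.

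The 10 lowest were *Ggt1*, *Trpm1*, *Atp1b1*, *Ccr9*, *Tesc*, *Igfbp4*, *Cd7*, *Emid1*, *Cd160* and *Gpd2*, from -2.04 to -1.37. *Cd7*, an early T cell surface protein, was at 569 CPM at 12W and 205 at 28W in the cells and at 333 and 184 in the other cells. *Atp1b1*, a subunit of the sodium pump, was at 80.7 and 24.5 in the cells and 48.9 and 11.6 in the others. *Tesc*, a calcium-binding protein, was at 25.6 and 8.52 in the cells but at 28.2 and 27.0 in the other cells. The markers themselves were within 2-fold of their 12W levels, with log2 ratios of -0.70 for *Ikzf2*, -0.64 for *Sox4*, -0.27 for *Ift80*, -0.19 for *Kcnc1*, -0.12 for *Myb*, which turned to the higher side relative to the median gene, and 0.26 for *St8sia6*.

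Interferon-stimulated genes were higher at 28W. In the cells 11 of 12 were higher, 4 by 2-fold, with a median of 0.71, and in the other cells 12 of 12, 8 by 2-fold, with a median of 1.10. Of all genes 22.6% were higher in the cells and 36.9% in the other cells (0.58% and 1.66% by 2-fold), with medians of -0.16 and -0.08. *Isg15* was at 45.9 CPM at 12W and 106 at 28W in the cells and at 71.1 and 182 in the other cells, and *Ifit3* at 22.2 and 60.1 against 29.6 and 101. *Slfn5* was the exception, 72.8 and 57.2 in the cells and 33.0 and 58.5 in the other cells.

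Immediate early genes were also mostly higher at 28W, 11 of 13 in the cells (7 by 2-fold, median 1.11) and 11 of 13 in the other cells (6 by 2-fold, median 0.77). Between the ages 22.6% of all genes were higher in the cells (0.58% by 2-fold, median -0.16). In the other cells 36.9% were (1.66% by 2-fold, median -0.08). *Fos* was at 209 CPM at 12W and 887 at 28W in the cells, the highest of all clusters at 28W, and at 104 and 384 in the other cells. *Junb* was at 391 and 1070. *Nr4a1* and *Egr1* were lower at 28W, at 78.5 and 38.0 and at 95.7 and 58.6 CPM in the cells. Over the other cells of their own library, all 12 immediate early genes above the filter were higher in the cells at 12W (median 0.46). At 28W all 13 were higher (0.75), and 1 and 2 genes reached 2-fold at the 2 ages. In these comparisons 68.6% and 60.0% of all genes were higher (1.48% and 1.88% by 2-fold), with medians of 0.23 and 0.09. Interferon-stimulated genes were split at 12W, with 7 of 12 higher and a median of 0.12 that turned to -0.11 relative to the median gene, and 13 of 14 were lower at 28W (median -0.37).

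Cytotoxic, homing and inhibitory receptor genes had lower medians between the ages in these cells than in the other cells. The median of all genes was also lower in these cells, -0.16 against -0.08. This direction was not particular to the named lists. Cytokine receptors and the TCR complex and signalling list shared it, and immediate early genes did not. Over 7 cytotoxic genes above the filter the median was -0.15 in the cells, which turned to 0.01 relative to the median gene, and 0.51 in the other cells. Over 14 homing genes it was -0.02 in the cells, which turned to 0.14 on the same scale, and 0.33 in the other cells. Over 8 inhibitory receptors it was -0.36 and 0.24. In the cells 2 were at least 2-fold lower at 28W, *Cd160* and *Pdcd1*, next to 0.528% of all genes. *Ctla4*, like *Lag3*, was higher in both, at 40.4 and 122 CPM in the cells and 30.8 and 90.9 in the other cells. The factors of naive and memory cells had medians of -0.19 and -0.30. The cells and the other cells of an age share a library, so these values stand side by side and their difference was not tested.

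**Figure D4:**
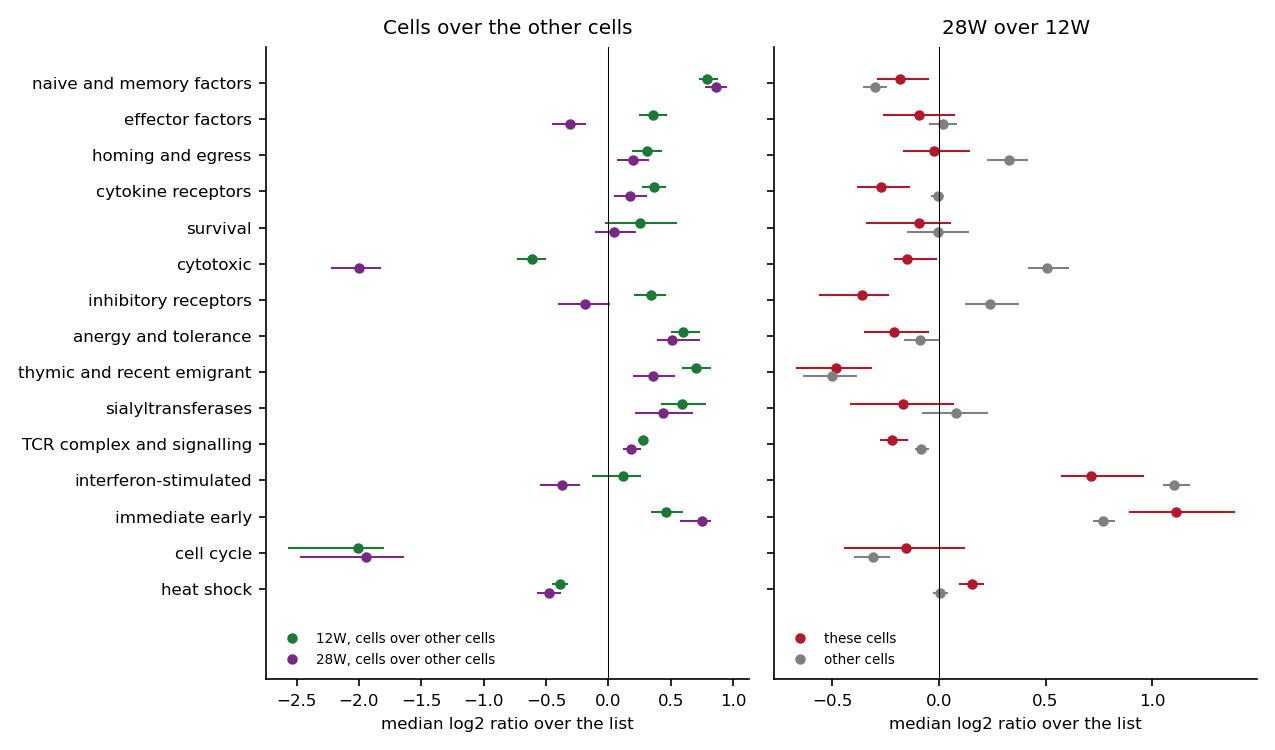
Median log2 ratio of 15 gene lists (rows) for the *Sox4* *Myb* *Ikzf2* cells over the other cells at each age (left) and for 28W over 12W in these cells and in the other cells (right). Lines run from the median of the members' lower to that of their upper 95% counting limits. Cytotoxic genes lie at -0.61 and -2.00 on the left, and on the right at -0.15 in these cells and 0.51 in the other cells.

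The genes whose 28W over 12W ratio was lowest in the cells compared with the other cells were *S100a6*, *Ccl5*, *Fcer1g*, *Tigit* and *Il7r*. *S100a6*, a calcium-binding protein of activated and memory T cells, was at 47.2 CPM [42.0, 52.9] and 51.1 [44.9, 57.9] in the cells, while the other cells went from 139 to 571. *Ccl5* was at 830 and 747 in the cells and 1436 and 4563 in the other cells. *Il7r*, the receptor of the survival cytokine interleukin 7, was at 151 and 93.8 in the cells and 227 and 393 in the others. *Tigit*, an inhibitory receptor, was at 24.2 [20.5, 28.3] and 14.8 [11.5, 18.6] in the cells and 15.2 and 28.3 in the others.

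The genes at the other end were *Sox4*, *Ccr9*, *Ppa1*, *Ctsl* and *Klf4*. *Ctsl*, a lysosomal protease, was at 25.1 and 17.7 CPM in the cells and 13.2 and 3.67 in the other cells, and *Ppa1*, a pyrophosphatase, at 18.4 and 30.1 against 107 and 76.8. *Sox4* and *Ccr9* were lower at 28W in both groups, *Sox4* by a log2 ratio of -0.64 in the cells and -2.18 in the others and *Ccr9* by -1.63 and -2.90. The other cells held 2955 and 592 CPM of erythroid genes and 500.5 and 872 CPM of B cell genes at 12W and 28W, and the part of that makeup was not tested.

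**Figure D5:**
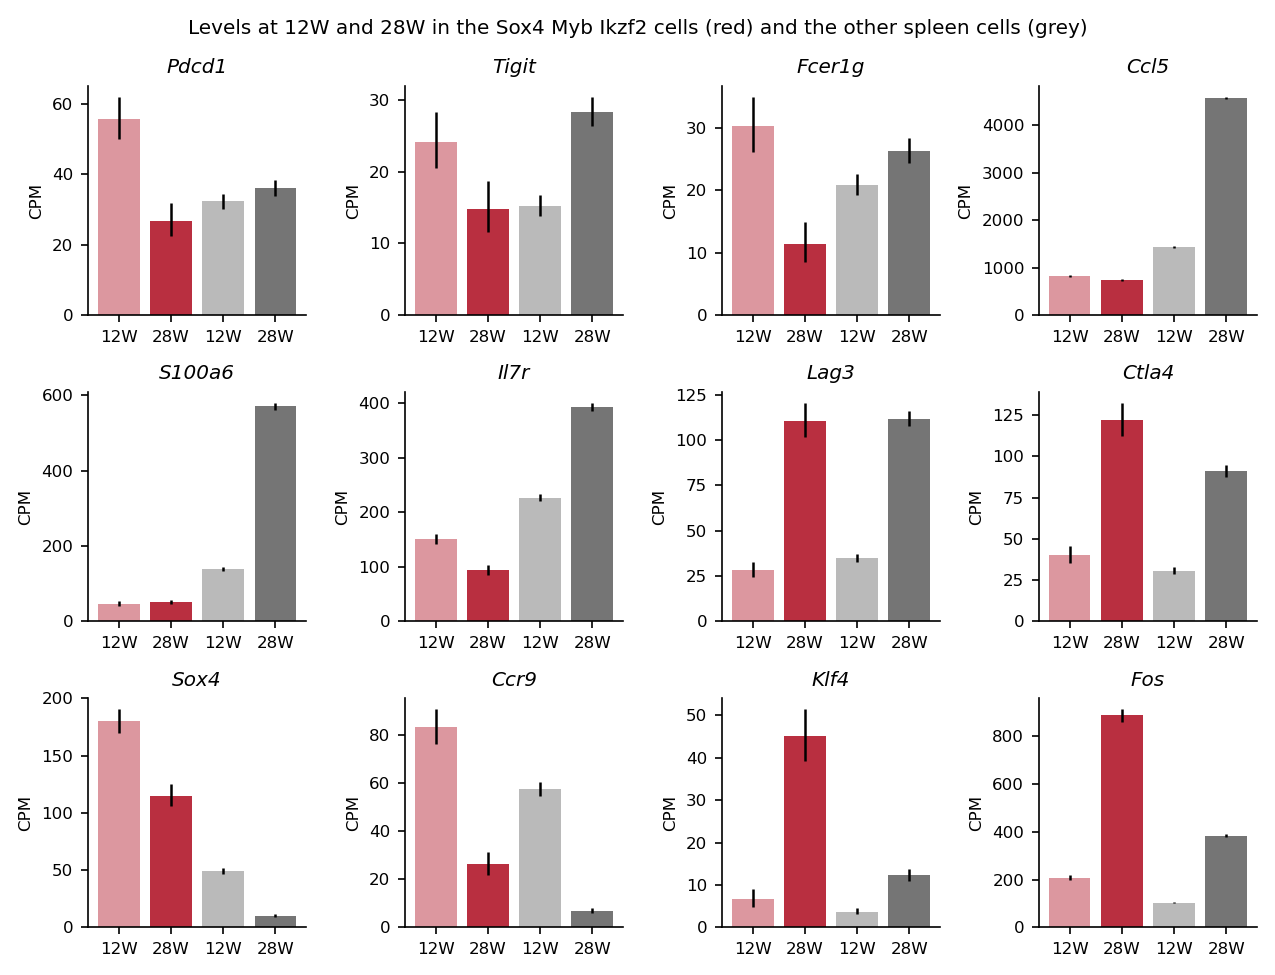
CPM of 12 genes (bars from 0, each panel with its own axis) at 12W and 28W in the *Sox4* *Myb* *Ikzf2* cells (red) and the other spleen cells (grey), with 95% counting intervals as lines. *S100a6* is at 47.2 and 51.1 in these cells and at 139 and 571 in the others, while *Lag3*, *Ctla4*, *Klf4* and *Fos* are higher at 28W in both.

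The use of T cell receptor V segments was described by shares of UMIs, with no test. The 3 most used beta segments were *Trbv13-2*, *Trbv13-1* and *Trbv1* at both ages. *Trbv13-2* took 24.0% of 17148 *Trbv* UMIs at 12W (exact binomial 95% interval 23.4 to 24.7) and 20.4% of 11487 at 28W (19.7 to 21.1), against 20.2% and 18.6% in the other cells. *Trbv13-1* took 19.9% at 12W (19.3 to 20.6) against 21.3%, and 18.8% at 28W (18.1 to 19.5) against 22.7%. *Trbv1* took 11.4% at 12W (10.9 to 11.9) against 12.8%, and 11.1% at 28W (10.6 to 11.7) against 13.6%. All 3 segments thus lay on the same side of the other cells at both ages, *Trbv13-2* above and the other two below. The effective number of *Trbv* segments, the inverse of the chance that a pair of UMIs share a segment, was 7.60 at 12W against 7.93 in the other cells, within the range of the other clusters (7.12 to 9.19), and 8.49 at 28W against 7.66 (6.06 to 9.36). For *Trav* segments it was 32.4 against 32.7 and 32.3 against 33.6, within 25.9 to 34.8 and 14.6 to 35.7. UMIs of 1 cell share its segment, so these intervals are too narrow.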

How the data were processed

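Sorted T cells (PD-1+, CD44+, CD8+) came from the spleen at 12W and 28W and the kidney at 28W, and libraries were made with the Chromium Single Cell 5′ v2 kit. Groups were taken from the titles of 12 samples, 4 a group. For the 28W spleen, 12 weeks stands in the age label against the title, which was followed. The submitters' processing notes name Cell Ranger 2.1.1, R 3.6.1 and GRCm38, and the annotation release is not given in the sources used here.

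Per library, the authors deposited each barcode's cluster and, per cluster and gene, a mean UMI count with other units of their own comparison (log2 fold changes and adjusted p-values, which were not used). In each cluster the deposited mean counts were whole multiples of 1 step, which gave back UMIs (100% of values within 0.001 of a whole number). Each table had been normalized separately by the authors to the median UMIs per cell of its library (3853, 4128 and 3501), so levels across libraries rest on division by each cell group's own total. UMIs were summed over clusters and divided by that total (CPM). Of 18992 gene identifiers, 18960 were in GENCODE M21, the source of coordinates. Promoters are from RefSeq.

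Comparisons were the cells over all other cells of their library, and 28W over 12W. A gene was compared with at least 20 CPM on either side, V, D and J segments aside, and counted past 2-fold. A pseudocount of 1 CPM understates differences of low genes, so a ratio's 95% interval, conditional binomial and without the pseudocount, can lie just beyond it. How doublets were treated is not given in the sources used here, and no doublet caller was run, since the tables used hold values per cluster and not per cell. With 1 library a group there is no test. A list's value is the median over genes above the filter. Named genes were the markers, examples from 30 lists, the 12 highest and 8 lowest over the other cells, the 10 highest and 10 lowest between the ages, and the 5 at each end of the difference between cells and other cells. The members and lists were chosen with earlier results of these data known. The alternatives tried were another pseudocount, total, scaling, filter and choice of other cells. Scripts (Python 3.11.15, numpy 2.4.6, pandas 2.3.3, scipy 1.17.1) were tested on simulated data.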

Additional observations from a re-analysis of the deposited data

Results flagged for a closer look

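The ratio over the other cells pointed in opposite directions at the 2 ages, beyond counting error and by at least 1 on the log2 scale, for 3 named genes. The difference of 28W minus 12W was -1.65 for *Fcer1g*, -1.53 for *Tigit* and -1.19 for *Pdcd1*, and these differences were not tested, since each age was 1 library. *Fcer1g* was at 30.4 CPM in the cells and 20.9 in the other cells at 12W and at 11.4 and 26.3 at 28W. Without the clusters of other blood cells or of low depth, its log2 ratio was 1.03 at 12W and -0.16 at 28W, next to 0.52 and -1.14 with them. The same ratios were 0.54 and -0.88 for *Tigit* and 0.80 and -0.42 for *Pdcd1*.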

How the results depend on the processing

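At 12W the counts of genes at least 2-fold higher and lower in the cells, 86 and 158, were 27 and 107 with a pseudocount of 10 CPM, 27 and 262 scaled to the median gene, 227 and 477 with no filter, 35 and 112 where the nearer counting limit also had to pass 2-fold, 22 and 159 against the unweighted mean of the other clusters, and 155 and 171 without clusters of other blood cells or low depth. The counts at 28W, 103 and 153, were 54 and 96, 82 and 180, 285 and 654, 68 and 103, 58 and 164, and 114 and 132 in the same order. Between the ages, 33 and 30 became 22 and 10 with the larger pseudocount, 44 and 17 with scaling, 127 and 213 with no filter and 20 and 12 by counting limit. With T cell receptor, mitochondrial and ribosomal genes left out of the total the counts were 79 and 236, 137 and 218, and 47 and 36.

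Against the most alike cluster, an alternative chosen after seeing the data, the counts were 129 and 5 at 12W and 161 and 8 at 28W. Of 48 named genes past 2-fold at 12W and 78 at 28W, 15 and 28 stayed past it there, and 15 and 20 changed sign. Without clusters of other blood cells or low depth, the 12W log2 ratios of *Hba-a1* (0.053), *Jchain* (0.32) and *Igkc* (0.24), the median of the B cell list at 12W (0.055) and the 28W ratio of *Ngp* (0.22) changed sign. The fewer blood cells in the comparison are that alternative's construction. The cause of the other shifts was not tested. No other named gene past 2-fold changed sign under the alternatives other than the most alike cluster.

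The correlation between the 12W and 28W cells, 0.88, was 0.82 by Spearman's rho, 0.91 over 1392 genes with at least 100 CPM and 0.88 without T cell receptor, mitochondrial and ribosomal genes, and each was the highest of these cells with any cluster of the other age. No replicate could be left out, because each group was 1 library.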
